A study of Mus musculus with 24 samples.

Results

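Protocadherins are the largest group of cadherin-type adhesion molecules, and 35 protocadherin genes were examined here across neural differentiation of mouse cells. They were chosen as the rows of the expression table whose symbol starts with Pcdh and that had a count in at least 3 of the 24 samples, which left 35 of 35 listed protocadherin rows, out of 21553 genes with counts. Of these, 1 row stood for the alpha cluster (Pcdha1), 21 rows were beta-cluster genes, 1 row stood for the gamma cluster (Pcdhga11) and 12 were unclustered. All 35 rows were among the 16627 genes that passed the expression filter. On neuron samples alone all 35 passed it, and on PSA-NCAM+ samples alone 27 did. Poly(A)+ RNA had been sequenced from embryonic stem cells (ESCs) grown in 2i medium, from neural progenitor cells (NPCs) at day 7 of monolayer differentiation, from cells positive for polysialylated NCAM (PSA-NCAM+ cells) at day 10 and from neurons replated at day 7 and grown for a further 14 days. At each stage wild-type cells (WT, wt/wt) were compared with slow/slow cells, homozygous for Polr2a[R749H], a substitution in the largest subunit of RNA polymerase II that the study used to slow transcription elongation. There were 3 replicates per group, described as independent differentiation experiments, so that the tests measure the spread between cultures of a single line per genotype. The slow/slow line had been made by gene targeting in ESCs, so that genotype and clone cannot be told apart. Cultures for NPCs and PSA-NCAM+ cells had been plated at 10000 cells per cm2 for WT and 30000 for slow/slow cells, so that density and genotype cannot be told apart at these stages, and the neurons had been replated from day 7 cultures.

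The clustered protocadherin genes lie in 3 neighboring arrays on mouse chromosome 18. In the alpha and gamma clusters each of many variable first exons has its own promoter and is spliced to a shared set of constant exons, whereas every beta gene is a single-exon gene of its own. Individual neurons express different combinations of variable exons. This choice involves CTCF and cohesin at the promoters and enhancers, and DNA methylation and Smchd1 are known to repress the arrays, while the proteins bind their own kind across cell contacts and help neurites of the same cell avoid each other. The unclustered members are scattered through the genome and are divided into delta1 genes (Pcdh1, Pcdh7, Pcdh9 and Pcdh11x), delta2 genes (Pcdh8, Pcdh10, Pcdh17, Pcdh18 and Pcdh19) and others (here Pcdh12, Pcdh15 and Pcdh20). The GENCODE annotation of GRCm38 lists 13 alpha, 22 beta and 22 gamma genes, so the single alpha row and the single gamma row cannot separate the promoters of their clusters. How reads of the other variable exons were assigned is not given in the sources used here, so it is not known whether either row measures its whole cluster or mainly 1 transcript with the constant exons. Beta genes are close copies of each other, Pcdhb21 overlaps Pcdhb22, and strand use in counting was not stated, so that values of single beta genes are uncertain.

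Total counts per sample ranged from 32974432 to 104466886. Expression is given as TMM-scaled CPM (read counts normalized to the scaled library total), with SD over 3 replicates, and changes as log2 of slow/slow over WT with SE. A change was called at a false discovery rate (FDR) under 0.05 in edgeR's quasi-likelihood test across all genes. The libraries of replicate 1 stood apart from the others in PSA-NCAM+ cells of both genotypes. Without both of them 29 protocadherin rows were higher and 2 lower in slow/slow PSA-NCAM+ cells, against 29 and 1 with them. The reported tests hold no replicate block and share an estimate of spread with the tighter stages. Their FDR values can thus be too small for PSA-NCAM+ cells. These are bulk samples, in which fewer cells of a type and less RNA per cell cannot be told apart. The sum of 7 neuron markers was highest where the labels name neurons, at 4081 to 4424 CPM in WT neurons and 77.0 to 112 CPM in WT PSA-NCAM+ cells. In WT ESCs it was 209 to 254 CPM, with Stmn2 averaging 174 CPM, so low values of the sum did not mark neurons alone.

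Protocadherin RNA was scarce in ESCs, except in the gamma row, and abundant in neurons. The alpha row of WT cells averaged 0.303 CPM ± 0.027 in ESCs, 0.979 CPM ± 0.226 in NPCs, then 2.36 CPM ± 0.18 in PSA-NCAM+ cells, and 168 CPM ± 9.39 in neurons. The 21 beta genes together averaged 0.516 CPM ± 0.131, 0.961 CPM ± 0.221, 3.88 CPM ± 1.99 and 239 CPM ± 6.18 at the same stages. The gamma row was already at 55.9 CPM ± 4.37 in ESCs and reached 420 CPM ± 4.09 in WT neurons, and the 12 unclustered genes rose from a sum of 10.0 CPM ± 0.97 to 539 CPM ± 14.6. Compared with WT ESCs, 10 of the 35 rows were higher in WT NPCs and 0 lower, where 34.0% of all tested genes were higher and 31.6% lower. The PSA-NCAM+ cells of WT had 25 higher and 0 lower (37.6% and 33.6% of all genes), and WT neurons 35 and 0 (43.4% and 39.4%). Slow/slow NPCs had 28 higher and 0 lower than slow/slow ESCs (33.9% and 28.4%), slow/slow PSA-NCAM+ cells 32 and 0 (39.2% and 34.2%), and slow/slow neurons 35 and 0 (44.0% and 38.4%). Rows can pass the filter on their neuronal level alone, so the 35 of 35 in neurons is a description. Per length, in the authors' mean RPKM, the order in WT neurons began with the gamma row (90.0), the alpha row (31.2), Pcdh10 (20.8), Pcdh8 (17.9), Pcdh9 (17.8) and Pcdh1 (15.3), and ended with Pcdh12 and Pcdh20 (0.0433 each). These RPKM values carry no SD, so neighbors in that order could not be separated by their spread.

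In slow/slow cells most beta genes and the single alpha and gamma rows were higher than in WT cells at both intermediate stages. Of the 35 rows, 29 were higher and 1 lower in NPCs, where 29.3% of all tested genes were higher and 27.4% lower. In PSA-NCAM+ cells 29 were higher and 1 lower, against 28.6% and 28.1% of all genes. The median log2 change of the 35 rows was 3.23 for NPCs and 2.27 for PSA-NCAM+ cells, beside 0.01 and -0.01 over all tested genes. In ESCs 3 rows were higher and 0 lower (18.5% and 21.9% of all genes), and 7 of the 35 rows had an unadjusted p under 0.05. The share of all genes at that p was not counted and is at least the 40.4% called by FDR. In neurons 6 were higher and 11 lower (23.4% and 28.4% of all genes), with a median of 0.01 beside -0.06. In either direction, 40.4% of all genes were called in ESCs, 56.7% at each of the intermediate stages and 51.9% in neurons. When neuron samples alone were fitted, 16 rows were higher and 15 lower, and with upper-quartile scaling 8 were higher and 10 lower in neurons, the median of all genes then being 0.08. When PSA-NCAM+ samples alone were fitted 18 were higher and 1 lower, of 27 rows that then passed the filter. The shares of all genes above belong to the fit of all samples, so counts from the other fits have no background here.

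**Figure D1:**
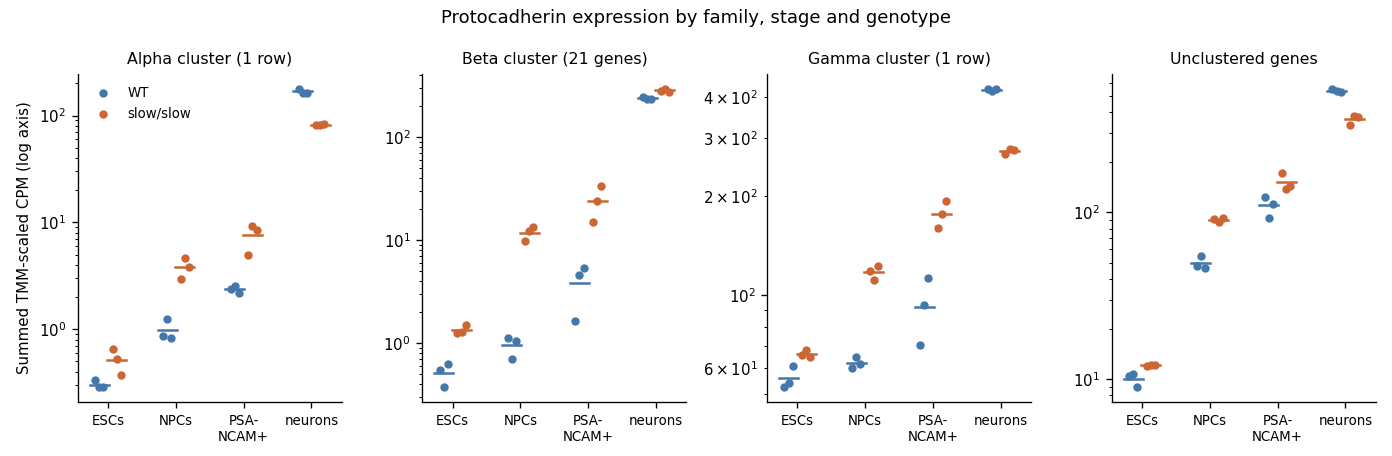
Summed expression of each protocadherin family in TMM-scaled CPM (vertical axes, log scale, a different range in each panel), by stage on the horizontal axis. Points are the 3 samples of each genotype and bars their means; in NPCs the beta sum runs from 0.709 to 1.12 CPM in WT and from 9.73 to 13.4 CPM in slow/slow cells, and in neurons the alpha, gamma and unclustered sums are lower in slow/slow cells while the beta sum is higher.

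The beta cluster showed the largest family change. In NPCs the summed CPM of its 21 genes was 1.12, 0.709 and 1.05 in WT and 9.73, 12.2 and 13.4 in slow/slow cells, a 12.2-fold difference of the means. Every slow/slow library was far above every WT library. In PSA-NCAM+ cells the sum was 1.63, 4.57 and 5.42 in WT and 15.0, 23.9 and 33.7 in slow/slow cells, or 6.24-fold. The groups were again separate, although replicates spread more than in NPCs, replicate 1 being lowest in both genotypes. In ESCs the sum was 0.547, 0.373 and 0.629 in WT and 1.27, 1.29 and 1.52 in slow/slow cells. In neurons, where the cluster was strongly expressed in both genotypes, it was 246, 237 and 234 in WT and 283, 297 and 278 in slow/slow cells, or 1.20-fold. The groups did not overlap at any stage. No test was made of these sums.

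Gene by gene, 19 of the 21 beta genes were higher in slow/slow NPCs and 21 of 21 in PSA-NCAM+ cells, with medians of 3.75 and 2.73 on the log2 scale. Over all genes 29.3% and 28.6% were higher. Some beta genes passed the expression filter only through other stages. Of those named in this paragraph, Pcdhb5, Pcdhb10 and Pcdhb12 did not pass it on NPC samples alone. Many of these genes had almost no reads in WT cells. Pcdhb13 had 0 counts in the 3 WT NPC libraries and 0.453, 0.263 and 0.394 CPM in slow/slow NPCs. Against a floor of 3 counts over the WT group it was at least 23.4-fold higher (FDR 1.1e-06). Pcdhb12, also at 0 in WT NPCs, was at 0.0776, 0.167 and 0.296 CPM in slow/slow NPCs and at least 9.44-fold higher (FDR 9.4e-05). Pcdhb11 had 1 read in all WT NPC libraries and 0.362, 0.382 and 0.567 CPM in slow/slow NPCs. The ratio of its pooled counts per scaled library was 75.9, with an exact 95% interval from 13.2 to 3043 that covers counting error only (FDR 1.1e-05). Pcdhb17, the beta gene with the highest mean CPM in WT neurons, was at 0, 0.0604 and 0.0600 CPM in WT and 1.62, 1.38 and 1.63 CPM in slow/slow NPCs, with a log2 value of 5.08 ± 0.58 (FDR 5.6e-07). The 2 beta genes not called in NPCs were Pcdhb5 (log2 0.85 ± 0.43, FDR 0.0977, and 0.0462 without WT NPC replicate 3) and Pcdhb10 (1.03 ± 1.16, FDR 0.470).

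In PSA-NCAM+ cells the largest fitted rises were those of Pcdhb10, Pcdhb4 and Pcdhb11. Pcdhb1, Pcdhb4 and Pcdhb10 did not pass the expression filter on PSA-NCAM+ samples alone. Pcdhb11 was at 0.0578, 0.0584 and 0.114 CPM in WT and at 0.817, 1.36 and 2.63 CPM in slow/slow cells (log2 4.39 ± 0.47, FDR 1.9e-07). Its FDR was 0.0068 in a fit of PSA-NCAM+ samples alone. Pcdhb10 rested on 1 read and Pcdhb4 on 2 reads in WT cells, so their ratios had wide counting intervals, from 5.46 to 1309 around 32.3 for Pcdhb10 and from 7.35 to 233 around 27.6 for Pcdhb4. The smallest rise was that of Pcdhb5, from 0.312, 0.117 and 0.293 CPM to 0.368, 0.352 and 0.644 CPM (log2 0.88 ± 0.33, FDR 0.0268), and it was not called when PSA-NCAM+ samples alone were fitted (FDR 0.217; range over 14 alternatives 0.0061 to 0.217), nor without WT PSA-NCAM+ replicate 2 (FDR 0.103) or slow/slow PSA-NCAM+ replicate 3 (FDR 0.187). The rise of Pcdhb1 was likewise lost without WT PSA-NCAM+ replicate 1 (FDR 0.0530) or slow/slow PSA-NCAM+ replicate 2 (FDR 0.0749). In ESCs Pcdhb14 rose from 0.0912, 0.0287 and 0.0719 CPM to 0.271, 0.245 and 0.310 CPM (log2 1.95 ± 0.46, FDR 0.00213). Pcdhb7 had 2 reads in all WT ESC libraries and 17 in slow/slow ESCs (ratio 10.6, interval 2.52 to 94.6, FDR 0.00364). It did not pass the filter on ESC samples alone. Each of these ESC levels was a small fraction of the neuronal level of the same gene.

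**Figure D2:**
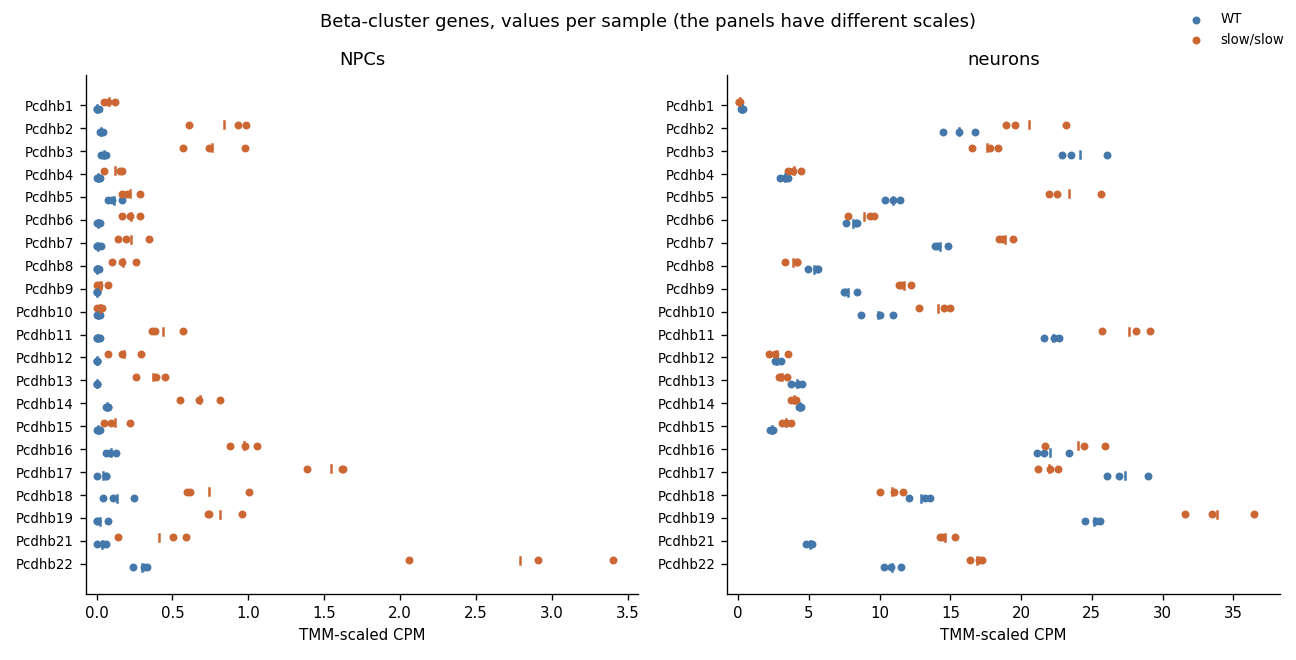
Expression of the 21 beta-cluster genes in TMM-scaled CPM per sample (horizontal axes, a different scale in each panel) in NPCs on the left and in neurons on the right, 1 row per gene, with a bar at the mean of each genotype. In NPCs the slow/slow points of nearly all genes lie to the right of the WT points, whereas in neurons the slow/slow points lie to the right of all WT points for 10 genes and to the left for 7.

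In neurons few of the 21 beta genes passed the test, 2 higher and 1 lower, with a median log2 change of 0.27. Over all genes 23.4% were higher and 28.4% lower, so the beta counts lay below the background in both directions. The groups of 3 did not overlap for 17 genes, of which 10 were higher and 7 lower in slow/slow neurons. How many of all tested genes separate in this way was not counted, so these numbers have no background. Pcdhb5 was at 10.9, 11.4 and 10.4 CPM in WT and 21.9, 25.7 and 22.6 CPM in slow/slow neurons, a rise of 1.10 ± 0.25 (FDR 0.00095). Pcdhb21 was at 4.77, 5.25 and 5.16 CPM in WT and 15.3, 14.4 and 14.3 CPM in slow/slow neurons, a rise of 1.53 ± 0.45 (FDR 0.00798). Pcdhb1 was at 0.246, 0.353 and 0.202 CPM in WT and 0.134, 0.0996 and 0.0822 CPM in slow/slow neurons, a fall of 1.27 ± 0.48 on the log2 scale (FDR 0.0351), which was not called in 7 of 12 alternatives (FDR 0.0136 to 0.154), among them leaving out any one neuron library except WT neuron replicate 3. Pcdhb17 was at 29.0, 26.1 and 26.9 CPM in WT and 22.1, 22.6 and 21.2 CPM in slow/slow neurons (log2 -0.32 ± 0.33, FDR 0.447). The 2 groups of Pcdhb17 values did not overlap, and its difference was called when neuron samples alone were fitted (FDR 0.0021; range over 12 alternatives 0.0021 to 0.698). In that fit 12 beta genes were higher and 5 lower, with no share of all genes beside these counts.

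The alpha and gamma rows were higher in slow/slow cells at both intermediate stages and lower in slow/slow neurons. Pcdha1 was at 0.874, 1.24 and 0.825 CPM in WT and 2.94, 4.63 and 3.84 CPM in slow/slow NPCs (log2 1.94 ± 0.21, FDR 3.4e-07). In PSA-NCAM+ cells it was at 2.39, 2.53 and 2.17 CPM in WT and 5.0, 9.18 and 8.52 CPM in slow/slow cells (1.69 ± 0.19, FDR 3.8e-07). In neurons the order was reversed, with 179, 161 and 164 CPM in WT and 80.9, 82.2 and 82.4 CPM in slow/slow cells (-1.04 ± 0.17, FDR 4.6e-05). Pcdhga11 was at 59.9, 64.9 and 61.8 CPM in WT and 118, 111 and 123 CPM in slow/slow NPCs (0.92 ± 0.11, FDR 1.2e-06). It was at 70.4, 93.6 and 113 CPM in WT and 160, 177 and 193 CPM in slow/slow PSA-NCAM+ cells (0.94 ± 0.11, FDR 7.8e-07), and at 422, 416 and 423 CPM in WT and 267, 278 and 275 CPM in slow/slow neurons (-0.62 ± 0.11, FDR 9.8e-05). In each of these comparisons the groups were separate. In a fit of PSA-NCAM+ samples alone the FDR was 0.0113 for Pcdha1 and 0.0204 for Pcdhga11. In ESCs the changes were 0.79 ± 0.33 for Pcdha1 (FDR 0.0604) and 0.25 ± 0.11 for Pcdhga11 (FDR 0.0839), and their sides of the threshold depended on the fit. They were called in 4 of 12 alternatives for Pcdha1 (FDR 0.0227 to 0.212) and in 3 of 12 for Pcdhga11 (FDR 0.0039 to 0.196), among them without slow/slow ESC replicate 3 for Pcdha1 (FDR 0.0333) and without WT ESC replicate 3 for Pcdhga11 (FDR 0.0498).

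Spliced reads gave another reading of the same clusters from the same libraries. The alpha and gamma rows may count the same reads, so the junctions are no independent support for them. The junctions between constant exons are shared by all 13 alpha or all 22 gamma transcripts, so that their reads count every variable exon of the cluster at once. Scaled like CPM, the first alpha constant junction had 5.90 ± 0.26 reads in WT and 2.72 ± 0.26 in slow/slow neurons, and 0.0533 ± 0.0409 and 0.223 ± 0.085 in PSA-NCAM+ cells. The first gamma junction had 2.45, 2.29 and 2.04 scaled reads in WT and 4.53, 4.06 and 4.86 in slow/slow NPCs. In PSA-NCAM+ cells it had 2.58, 4.03 and 3.86 in WT and 5.64, 6.60 and 7.37 in slow/slow cells. In neurons it had 16.4, 17.0 and 17.6 in WT and 10.1, 11.3 and 10.3 in slow/slow cells. These groups did not overlap, while in ESCs those of the first gamma junction did. In NPCs the first alpha junction rested on 6 reads in WT and 11 in slow/slow cells, and its groups overlapped. No test was made on junction reads.

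**Figure D3:**
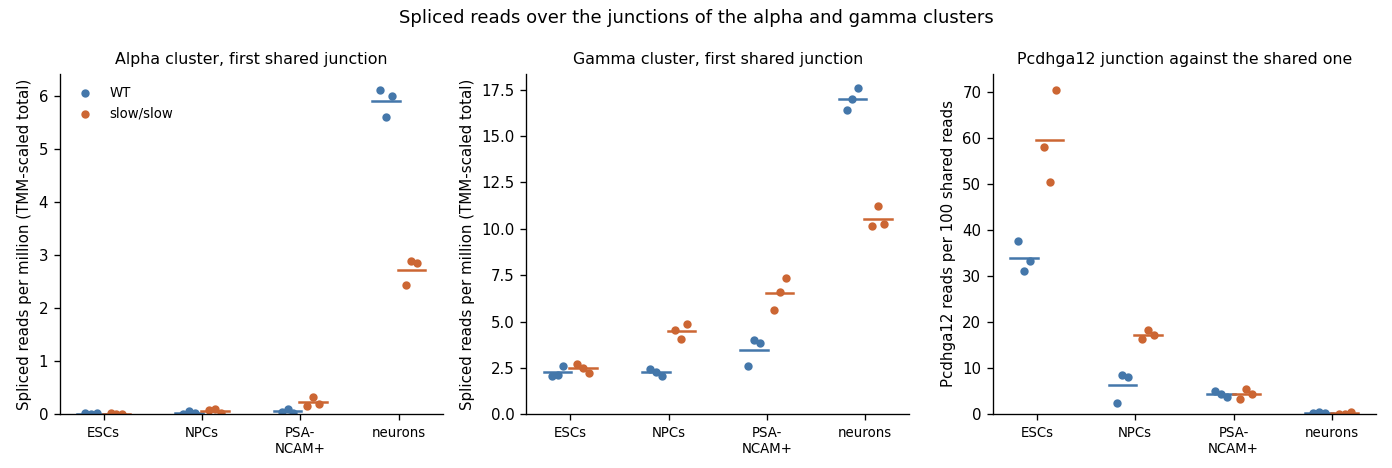
Vertical axes give reads over the first constant-exon junction of the alpha and of the gamma cluster, scaled like CPM, and reads over the Pcdhga12 junction per 100 reads of the first gamma constant junction, by stage; points are samples and bars means. The gamma junction is higher in slow/slow NPCs and PSA-NCAM+ cells and lower in slow/slow neurons, and the mean Pcdhga12 share falls from ESCs to neurons in both genotypes.

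A single variable exon could be followed through its own junction. The intron of 56480 bases that joins the exon of Pcdhga12, the last of the A-type gamma genes, to the first constant exon belongs to that gene alone. In ESCs this junction had 37.5, 31.1 and 33.3 reads per 100 reads of the first constant junction in WT and 58.0, 50.4 and 70.4 in slow/slow cells. In NPCs it had 2.54, 8.55 and 8.09 in WT and 16.3, 18.2 and 17.3 in slow/slow cells. At both stages all slow/slow libraries were above all WT libraries. In PSA-NCAM+ cells the means were 4.36 ± 0.57 and 4.35 ± 1.12 and in neurons 0.360 ± 0.099 and 0.215 ± 0.282, and the groups overlapped. The neuronal values rested on 14 reads in WT and 3 in slow/slow cells. The share of Pcdhga12 in gamma-cluster RNA was thus far higher in ESCs than in neurons of either genotype.

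Among the unclustered genes 4 of the 5 delta2 genes were higher in slow/slow cells both in NPCs and in PSA-NCAM+ cells (29.3% and 28.6% of all genes were), while in neurons 2 were higher and 3 lower (23.4% and 28.4%). Pcdh8 encodes a protocadherin induced by neuronal activity that takes part in the internalization of N-cadherin. Pcdh10 and Pcdh17 bind the WAVE complex that organizes actin, and mutations of the X-linked Pcdh19 cause an epilepsy that affects mainly females. The 250 bases upstream of the RefSeq starts (GRCm38.p6) are shown for the 4 delta2 genes that rose at both stages, so that their sequences can be compared; none of these genes lies in a protocadherin cluster. Windows were chr14:79771313-79771562 on the minus strand for Pcdh8, chr3:45378148-45378397 on the plus strand for Pcdh10, chr14:84443313-84443562 on the plus strand for Pcdh17 and chr3:49757317-49757566 on the minus strand for Pcdh18. Capitals mark matches on either strand to 3 motifs that do not overlap each other here. The TATA motif was searched as TATAAA, the GC box motif as GGGCGG, and the inverted box, which reads ATTGG in these windows, as CCAAT.
Pcdh8: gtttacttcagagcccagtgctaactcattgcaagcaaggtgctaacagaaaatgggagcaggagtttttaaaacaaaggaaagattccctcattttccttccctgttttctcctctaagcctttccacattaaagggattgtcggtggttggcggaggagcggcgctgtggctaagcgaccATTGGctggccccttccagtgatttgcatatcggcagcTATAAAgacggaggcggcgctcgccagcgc
Pcdh10: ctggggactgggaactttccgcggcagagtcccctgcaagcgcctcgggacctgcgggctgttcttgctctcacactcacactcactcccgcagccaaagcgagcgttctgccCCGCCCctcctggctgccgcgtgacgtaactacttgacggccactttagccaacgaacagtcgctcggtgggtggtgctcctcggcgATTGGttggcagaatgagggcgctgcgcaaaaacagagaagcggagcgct
Pcdh17: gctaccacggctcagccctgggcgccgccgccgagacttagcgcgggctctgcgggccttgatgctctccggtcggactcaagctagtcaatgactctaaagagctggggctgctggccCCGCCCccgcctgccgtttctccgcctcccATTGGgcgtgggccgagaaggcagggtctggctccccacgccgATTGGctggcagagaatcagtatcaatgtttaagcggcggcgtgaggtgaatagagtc
Pcdh18: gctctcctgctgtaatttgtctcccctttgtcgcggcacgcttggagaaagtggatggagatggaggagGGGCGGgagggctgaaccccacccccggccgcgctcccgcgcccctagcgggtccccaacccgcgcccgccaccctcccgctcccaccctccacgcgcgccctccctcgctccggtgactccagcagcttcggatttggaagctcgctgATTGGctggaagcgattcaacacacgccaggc

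CCAAT was found in all 4 windows, and in 8 of the 9 unclustered genes that had a window, against 33.8% of 32851 windows of all genes. GGGCGG was found in Pcdh10, Pcdh17 and Pcdh18 and in 4 of the 9 (32.7% of all windows), and TATAAA in Pcdh8 and in 2 of the 9 (12.4%). These motifs were 3 of 13 looked at. The GC content was 51.2% upstream of Pcdh8, 63.2% for Pcdh10, 64.8% for Pcdh17 and 68.0% for Pcdh18, beside a median of 52.4% over all windows. A match is a stretch of letters and was not tested as a binding site.

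Pcdh18 had the steepest rise of the delta2 genes in NPCs, from 1.23, 0.875 and 0.885 CPM in WT to 9.86, 13.1 and 12.3 CPM in slow/slow cells (log2 3.57 ± 0.20, FDR 4.2e-11). It rose again in PSA-NCAM+ cells, from 8.12, 9.98 and 12.9 CPM to 25.4, 28.9 and 29.1 CPM (1.43 ± 0.17, FDR 7e-07), and in neurons, from 15.5, 19.4 and 18.5 CPM to 52.1 CPM in each of the 3 slow/slow libraries (1.55 ± 0.17, FDR 2.6e-07). Pcdh8 followed the same course. It was at 0.811, 1.09 and 1.00 CPM in WT and 7.44, 9.21 and 10.5 CPM in slow/slow NPCs (3.21 ± 0.20, FDR 3e-10), and at 1.74, 2.22 and 1.43 CPM in WT and 18.8, 28.5 and 28.1 CPM in slow/slow PSA-NCAM+ cells (3.81 ± 0.20, FDR 1.8e-11). In a fit of PSA-NCAM+ samples alone the FDR was 0.0084 for Pcdh18 and 0.0025 for Pcdh8. In neurons Pcdh8 was at 71.8, 69.7 and 70.7 CPM in WT and 97.7, 139 and 136 CPM in slow/slow cells (0.81 ± 0.17, FDR 0.00043). Both genes were thus higher in slow/slow cells at the 3 differentiated stages, with no overlap of the groups.

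Pcdh10 and Pcdh17 rose at the intermediate stages and fell in neurons. In a fit of PSA-NCAM+ samples alone the FDR was 0.0117 for Pcdh10 and 0.0215 for Pcdh17. Pcdh10 was at 0.125, 0.151 and 0.0450 CPM in WT and 0.634, 0.573 and 1.08 CPM in slow/slow NPCs (2.81 ± 0.37, FDR 3.7e-06), rose by 2.00 ± 0.25 in PSA-NCAM+ cells (FDR 1.2e-06), and was at 129, 125 and 122 CPM in WT and 54.4, 56.4 and 57.1 CPM in slow/slow neurons (-1.16 ± 0.19, FDR 4.8e-05). Pcdh17 was at 0.0832, 0.151 and 0.135 CPM in WT and 0.608, 0.764 and 1.38 CPM in slow/slow NPCs (2.80 ± 0.36, FDR 2.2e-06), rose by 1.50 ± 0.24 in PSA-NCAM+ cells (FDR 2.1e-05), and was at 69.1, 67.7 and 64.5 CPM in WT and 36.6, 40.7 and 37.0 CPM in slow/slow neurons (-0.82 ± 0.21, FDR 0.00309). Pcdh19 differed from the other delta2 genes in being present at similar levels from ESCs to PSA-NCAM+ cells, between 4.84 and 11.7 CPM in every library. Its change was 0.19 ± 0.21 in NPCs (FDR 0.448) and 0.47 ± 0.21 in PSA-NCAM+ cells (FDR 0.0597), the latter being called in 3 of 14 alternatives (FDR 6.6e-05 to 0.401), among them without WT PSA-NCAM+ replicate 2 (FDR 0.0335) or slow/slow PSA-NCAM+ replicate 1 (FDR 6.6e-05). In neurons it was at 53.5, 48.4 and 49.8 CPM in WT and 15.7, 17.0 and 17.2 CPM in slow/slow cells (-1.60 ± 0.21, FDR 2.4e-06).

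**Figure D4:**
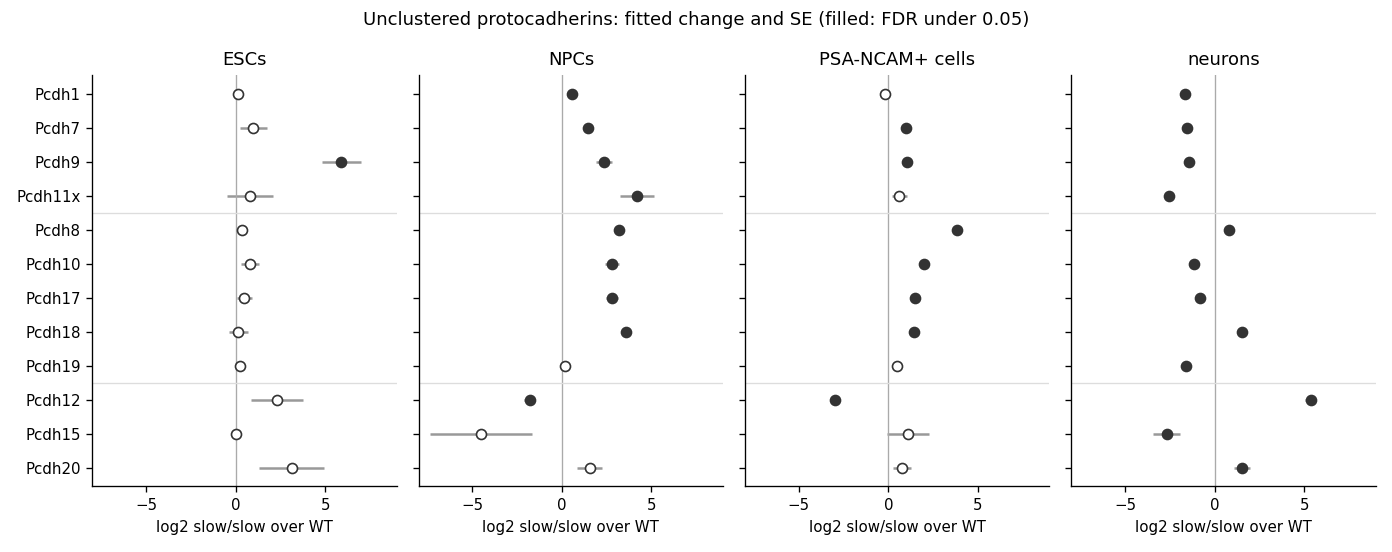
Log2 change of slow/slow over WT cells (edgeR) of the 12 unclustered protocadherin genes on the horizontal axis, 1 panel per stage, with SE as bars and filled points at an FDR under 0.05. Pcdh8 and Pcdh18 lie above 0 in NPCs, PSA-NCAM+ cells and neurons, while the 4 delta1 genes lie below 0 in neurons.

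The delta1 genes, whose products have a longer extracellular domain and a cytoplasmic motif that binds protein phosphatase 1, were higher in slow/slow NPCs in 4 of 4 cases and lower in slow/slow neurons in 4 of 4. Over all genes 29.3% were higher in NPCs and 28.4% lower in neurons. Pcdh1 was at 37.0, 42.8 and 36.5 CPM in WT and 62.4, 53.2 and 55.5 CPM in slow/slow NPCs (0.56 ± 0.17, FDR 0.00735). In neurons it was at 59.8, 59.0 and 58.0 CPM in WT and 18.4, 18.7 and 18.9 CPM in slow/slow cells (-1.66 ± 0.17, FDR 1.2e-07). Pcdh7 rose by 1.44 ± 0.28 in NPCs (FDR 0.00022) and was at 46.1, 43.8 and 43.9 CPM in WT and 15.7, 15.6 and 15.1 CPM in slow/slow neurons (-1.53 ± 0.24, FDR 2.6e-05). Pcdh11x, on the X chromosome, was at 34.5, 35.2 and 32.1 CPM in WT and 5.84, 5.97 and 5.48 CPM in slow/slow neurons (-2.56 ± 0.30, FDR 7.1e-07). Its rise in NPCs rested on 1 read in WT and 21 in slow/slow cells (ratio 23.8, interval 3.83 to 984, FDR 0.00091). Pcdh11x did not pass the expression filter on NPC samples alone. Pcdh9, a gene strongly expressed in neurons, was at 70.0, 64.4 and 61.9 CPM in WT and 24.3, 24.2 and 23.6 CPM in slow/slow neurons (-1.45 ± 0.20, FDR 8.1e-06). It rose by 2.37 ± 0.45 in NPCs (FDR 0.00022), and in ESCs it had 0 counts in WT and 15 in slow/slow cells, at least 6.23-fold higher (FDR 0.0003). On ESC samples alone Pcdh9 did not pass the filter.

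In PSA-NCAM+ cells 2 of the 4 delta1 genes were called, both higher (28.6% of all genes were higher). Pcdh7 was at 5.47, 6.28 and 7.05 CPM in WT and 18.4, 8.84 and 10.2 CPM in slow/slow cells (0.99 ± 0.24, FDR 0.00177). Pcdh9 was at 0.648, 0.272 and 0.277 CPM in WT and 0.960, 0.821 and 0.819 CPM in slow/slow cells (1.04 ± 0.25, FDR 0.00191). In a fit of PSA-NCAM+ samples alone neither rise was called (FDR 0.0745 for Pcdh7 and 0.105 for Pcdh9), and the FDR ranged from 0.00015 to 0.0774 for Pcdh7 and from 2.1e-06 to 0.105 for Pcdh9 over 14 alternatives. With the replicate block added to that fit Pcdh9 was called (FDR 0.0394) and Pcdh7 was not (FDR 0.0774). Pcdh1 (-0.20 ± 0.16, FDR 0.298) and Pcdh11x (0.62 ± 0.44, FDR 0.236) overlapped between genotypes. Pcdh1 was called lower, at a log2 change of -0.35, without both libraries of replicate 1, and at -0.49 without slow/slow PSA-NCAM+ replicate 1 alone. Pcdh11x was called higher without WT PSA-NCAM+ replicate 3 (FDR 0.0496).

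The remaining 3 unclustered genes each behaved differently. Pcdh12, known from vascular endothelium, where its product sits at cell junctions, was the only protocadherin row called lower at the intermediate stages. It was at 0.936, 1.04 and 0.780 CPM in WT and 0.272, 0.358 and 0.148 CPM in slow/slow NPCs (-1.81 ± 0.31, FDR 0.0001). In PSA-NCAM+ cells it was at 3.51, 2.08 and 2.61 CPM in WT and 0.327, 0.299 and 0.404 CPM in slow/slow cells (-2.99 ± 0.29, FDR 1.3e-07). In a fit of PSA-NCAM+ samples alone its FDR was 0.0040. In neurons it was at 0.169, 0.273 and 0.279 CPM in WT and 11.2, 9.09 and 9.95 CPM in slow/slow cells, a 41.1-fold rise (log2 5.36 ± 0.31, FDR 3.1e-10). Markers of endothelium were read beside it. The sum of 6 was 84.9 to 91.9 CPM in WT and 26.6 to 35.8 CPM in slow/slow NPCs, 61.5 to 67.5 and 18.8 to 31.6 CPM in PSA-NCAM+ cells, and 11.4 to 14.3 and 110 to 139 CPM in neurons. Of the 6, 2 were lower (Pecam1 and Tie1) and 1 higher (Kdr) in slow/slow NPCs, 3 lower and 0 higher in PSA-NCAM+ cells, and 6 higher in neurons. At the intermediate stages Pecam1 made up most of the sum, with means of 74.7 CPM in WT against 19.3 CPM in slow/slow NPCs and 42.6 against 8.06 CPM in PSA-NCAM+ cells. Pecam1 was also at 126 CPM in ESCs of both genotypes, so it did not mark endothelium alone here. Emcn was at 0 in all ESC and NPC libraries, and Tie1 and Cdh5 averaged 0.0512 and 2.80 CPM in WT against 10.5 and 70.5 CPM in slow/slow neurons. Their part in the Pcdh12 values was not tested.

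Pcdh15, which encodes a tip-link protein of inner-ear hair cells, was detected mainly in neurons, at 4.47, 3.40 and 3.69 CPM in WT and 0.566, 0.597 and 0.630 CPM in slow/slow cells (-2.69 ± 0.74, FDR 0.00698). DESeq2 did not call it (adjusted p = 0.247, range over 12 alternatives 1.7e-07 to 0.247). Pcdh20 was at 0.246, 0.225 and 0.183 CPM in WT and 0.730, 0.647 and 0.493 CPM in slow/slow neurons (1.54 ± 0.44, FDR 0.00656), and in NPCs its change of 1.55 ± 0.70 was not called (FDR 0.0669) except without WT NPC replicate 1 (FDR 0.0279).

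Genotype effects at later stages were also tested against the effect in ESCs. The change from WT to slow/slow was more positive in NPCs than in ESCs for 7 rows (13.6% of all genes) and more negative for 0 (11.0%). In PSA-NCAM+ cells it was more positive for 3 (15.1%) and more negative for 1 (12.0%), and in neurons more positive for 0 (20.5%) and more negative for 10 (21.6%). The 7 in NPCs were 4 of the 5 delta2 genes, both single cluster rows and Pcdhb22, a beta gene named after its values were seen. All later stages were set against the same ESC samples. Of the 21 beta genes, which had few reads in ESCs, 1 was called in NPCs. When single libraries were left out the number of rows ranged from 4 (without WT ESC replicate 3) to 8 in NPCs, and from 3 to 8 (without slow/slow PSA-NCAM+ replicate 1) in PSA-NCAM+ cells.

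In neurons the direction of change of unclustered genes followed their genomic span (GENCODE, GRCm38). The 4 genes that rose span 4.5 kb (Pcdh8), 6.7 kb (Pcdh20), 14.0 kb (Pcdh18) and 17.3 kb (Pcdh12). The 8 that fell span from 26.1 kb (Pcdh1) to 1550.4 kb (Pcdh15), with Pcdh10 at 57.2 kb, Pcdh17 at 95.4 kb, Pcdh19 at 106.1 kb, Pcdh7 at 415.3 kb, Pcdh11x at 620.4 kb and Pcdh9 at 877.3 kb. Over the 12 genes Spearman's rho between span and log2 change was -0.762 and Pearson's r with log10 span was -0.698. These are descriptions across genes measured in the same libraries. In NPCs rho was -0.252. Among the other genes tested in neurons, 25.5% were higher and 23.8% lower at a span under 20 kb (7429 genes), and 15.9% were higher and 48.8% lower at a span over 200 kb (928 genes). The share of lower genes in neurons thus also rose with span outside the protocadherins. In ESCs 19.3% of these genes were lower under 20 kb and 31.8% over 200 kb. The shares were 27.1% and 26.8% in NPCs, and 30.7% and 21% in PSA-NCAM+ cells.

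**Figure D5:**
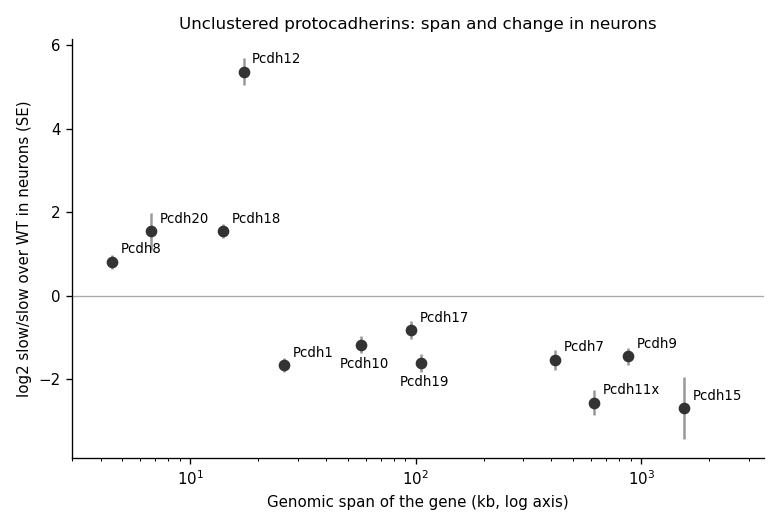
Log2 change in neurons, slow/slow over WT cells with SE, of the 12 unclustered protocadherin genes (vertical axis) against genomic span in kb on a log scale (horizontal axis). The 4 genes spanning 4.5 to 17.3 kb lie above 0 and the 8 genes spanning 26.1 to 1550.4 kb lie below 0.

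Markers of cell types were read beside these changes. In ESCs the sum of 7 neuron markers was 209 to 254 CPM in WT and 329 to 388 CPM in slow/slow cells, with 2 of 7 higher (Syn1 and Tubb3). In NPCs it was 97.7 to 106 CPM in WT and 249 to 289 CPM in slow/slow cells, with 5 of 7 higher, and thus lower than in ESCs of the same genotype. In PSA-NCAM+ cells it was 77.0 to 112 and 221 to 551 CPM, with 7 of 7 higher, and in neurons 4081 to 4424 and 3288 to 3503 CPM, with 4 of 7 lower. Progenitor markers were higher in slow/slow cells in 4 of 5 cases in NPCs and 5 of 5 in PSA-NCAM+ cells. Pluripotency markers were lower in 5 of 6 and 4 of 6. Their sum was 2082 to 2140 CPM for WT NPCs, against 1184 to 1310 CPM for slow/slow NPCs. For PSA-NCAM+ cells it spanned 1336 to 1836 CPM (WT) and 708 to 732 CPM (slow/slow). Progenitor sums, WT first, were 273 to 289 and 340 to 370 CPM for NPCs. They were 195 to 255 and 455 to 599 CPM for PSA-NCAM+ cells. The pluripotency sum thus exceeded the progenitor sum in both genotypes at these stages. In neurons, 6 mesenchymal markers summed to 234 to 289 CPM in WT and 533 to 569 CPM in slow/slow cells, with 4 higher and 1 lower, and 7 glial markers to 145 to 180 and 59.7 to 82.1 CPM, with 3 higher and 4 lower. Of 5 progenitor markers 4 were higher and 0 lower in slow/slow neurons, among them Pax6 (2.72 on the log2 scale), Hes5 (2.81) and Sox2 (0.60). The progenitor markers summed to 988 to 1178 CPM in WT and 1242 to 1427 CPM in slow/slow neurons. Of 6 pluripotency markers 4 were higher and 1, Pou5f1, lower in neurons, with sums of 98.0 to 128 and 78.4 to 81.5 CPM. Of 6 endoderm markers 5 were higher and 1 lower in neurons (sums of 61.2 to 72.6 and 50.6 to 81.4 CPM), 1 higher and 0 lower in NPCs, and 0 higher and 1 lower in PSA-NCAM+ cells. The part of cell composition in the protocadherin values was not tested.

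Of 19 regulators of clustered protocadherin expression (CTCF, cohesin and its loaders, DNA methyltransferases, TET enzymes, Setdb1 and Smchd1), 9 were higher and 3 lower in slow/slow ESCs. The counts were 10 and 3 for NPCs, 9 and 5 for PSA-NCAM+ cells, and 3 and 1 for neurons. Over all genes 18.5% were higher and 21.9% lower in ESCs, while NPCs had 29.3% and 27.4%, PSA-NCAM+ cells 28.6% and 28.1%, and neurons 23.4% and 28.4%. The neuronal counts of regulators lie below these shares in both directions. Ctcf was higher at every stage, by 0.67 ± 0.11, 0.81 ± 0.11, 0.82 ± 0.11 and 0.46 ± 0.11 in order of the stages (FDR 6.9e-05, 4.8e-06, 3.6e-06 and 0.00171). Mau2, a subunit of the cohesin loader, was higher by 0.80 ± 0.06 in ESCs (FDR 4.1e-09) and by 0.89 ± 0.06 in NPCs (FDR 5.9e-10). It was higher by 0.62 ± 0.06 in PSA-NCAM+ cells (FDR 4.9e-08) and by 0.49 ± 0.06 in neurons (FDR 1.2e-06). The loader gene Nipbl and the cohesin gene Rad21 were lower in ESCs (-0.39 and -0.29, FDR 0.0084 and 0.0101). Both were also lower in NPCs (-0.49 and -0.65, FDR 8.8e-04 and 3.8e-06) and PSA-NCAM+ cells (-0.34 and -0.64, FDR 0.0126 and 3.6e-06). Neither was called in neurons. The de novo DNA methyltransferase Dnmt3b averaged 258 CPM ± 1.94 in WT NPCs against 856 CPM ± 52.3 in slow/slow NPCs (1.73 ± 0.34, FDR 0.00022) and was higher by 1.41 ± 0.33 in PSA-NCAM+ cells (FDR 0.00125). Dnmt3a was higher by 1.07 ± 0.16 in NPCs (FDR 1.1e-05), and Tet2 was lower in PSA-NCAM+ cells (-0.85 ± 0.13, FDR 2.3e-05). Smchd1 was higher in ESCs (0.35 ± 0.12, FDR 0.0264) and PSA-NCAM+ cells (0.49 ± 0.12, FDR 0.00174), and was at 0.02 ± 0.12 in NPCs (FDR 0.903) and -0.17 ± 0.12 in neurons (FDR 0.237). The 29 other tested genes within 500 kb of the clusters had median changes of 0.11, 0.23, 0.08 and -0.06 at the 4 stages.

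Of 14 partners of protocadherin proteins, which include N-cadherin, the WAVE complex and the kinases Ret, Fyn and focal adhesion kinase, 3 were higher and 4 lower in slow/slow ESCs. The counts were 5 and 6 for NPCs, 8 and 3 for PSA-NCAM+ cells and 2 and 9 for neurons. Beside the shares of all genes given for the regulators, the counts in ESCs lie near the background. Cdh2, which encodes N-cadherin, was higher by 3.02 ± 0.37 in NPCs (14.3 CPM ± 1.45 against 117 CPM ± 19.0, FDR 1.4e-06) and by 1.83 ± 0.35 in PSA-NCAM+ cells (FDR 0.00018). The WAVE subunit gene Abi2 was higher by 1.30 ± 0.12 in PSA-NCAM+ cells (FDR 3.4e-08). The receptor kinase gene Ret was lower in ESCs (-1.11 ± 0.40, FDR 0.0300) and NPCs (-1.81 ± 0.35, FDR 0.00024), and Ptk2b was lower in ESCs (-1.69 ± 0.40, FDR 0.00186). In neurons Fyn fell by 0.98 ± 0.13 on the log2 scale (FDR 3.3e-06) and the WAVE gene Wasf1 fell by 0.50 ± 0.18 (FDR 0.0280).

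Splicing within protocadherin genes could be read almost only in neurons. The splicing table listed 109 protocadherin events of 14 symbols, among them 32 cassette exons, 3 microexons and 66 introns. After the coverage filters 2, 3, 5 and 23 could be tested at the 4 stages, and 0, 0, 0 and 1 were called at a difference in percent spliced in (PSI) over 10 points and a posterior probability over 0.95. Of all events tested, 0.199%, 0.886%, 0.266% and 0.887% were called. With limma the number of protocadherin events with an unadjusted p under 0.05 was 0, 0, 0 and 9. This count has no share of all events beside it. Among the 9 was a Pcdh19 intron with a PSI of 0 in every neuron library, whose genotypes differed in read number only. A Pcdh1 intron among them was above 0 only in WT neuron replicate 3, at 0.17%. The 9 can thus not be read as 9 differences in splicing. The called event was an 84-nucleotide exon of Pcdh17 (mm9, chromosome 14, 84917752 to 84917835). Its PSI was 16.4, 12.9 and 16.3% in WT neurons, from 124, 101 and 157 reads, and 7.02, 2.33 and 4.23% in slow/slow neurons, from 61, 88 and 37 reads. It was thus included less in each slow/slow library, by 10.7 points on average, with a posterior probability of 0.041 that inclusion was higher in slow/slow cells. The call was lost at a threshold of 15 points and without slow/slow neuron replicate 2. The other exons tested in these genes were not called. A 59-nucleotide Pcdh17 exon (chromosome 14, 84877130 to 84877188) averaged 90.5 and 84.5%, and a 306-nucleotide Pcdh10 exon (chromosome 3, 45196491 to 45196796) averaged 98.2 and 100%. Retention of the constant introns of the gamma cluster was at most 1.69% in any library.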

How the data were processed

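RNA had been poly(A)-selected and sequenced from both ends with a kit that keeps the strand; whether the strand was used in counting is not given in the sources used here. The authors mapped reads to mm9 and deposited vast-tools raw counts for each gene and sample, the mean RPKM of each group, and PSI values, a percent per splicing event and sample, with quality scores and read numbers. The submitters' processing notes name bcl2fastq 2.17.1.14 and edgeR. The deposited fold changes and FDR values of the authors' own comparisons, and a second splicing table with 1 estimate per group, were not used.

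The table listed 22667 genes, 1114 of them with no value. Counts were tested with edgeR 4.0.16 in R 4.3.3: filterByExpr by group (16627 genes), TMM scaling, and the quasi-likelihood test (glmQLFit, glmQLFTest) in 1 model of 8 groups over 24 samples, with 16 residual degrees of freedom, a common biological coefficient of variation of 0.164 and Benjamini-Hochberg adjustment over all genes. SE was the log2 change divided by the root of F. Where a group held 0 counts a floor of 3 counts over the group was used, and for 1 to 3 counts the exact 95% interval of the ratio; both cover counting error only.

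Splicing events were filtered on coverage and junction balance as in the study (at least 15 reads for introns) in all 6 samples of a stage, and tested with beta posteriors of pooled reads (PSI difference over 10 points, probability over 0.95) or with limma 3.58.1 on logit reads. DESeq2 1.42.0, other scalings, fits of a stage alone, a replicate block and leaving out each library were alternatives. Scripts were tested on simulated data. Same-numbered samples deviated together in PSA-NCAM+ cells (correlations 0.54, 0.45 and 0.40) and not at the other stages (-0.08 to 0.07). In PSA-NCAM+ cells WT replicate 2 with slow/slow replicate 3 (0.40) and WT replicate 3 with slow/slow replicate 2 (0.24) also deviated together. These values set replicate 1 apart and do not decide whether numbers pair the samples. The reported fit held no replicate block, which was an alternative. No libraries were duplicates.

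The protocadherin genes, the gene lists and the tests were chosen with earlier results of these data known. Genes named are all unclustered members, up to 3 rises and 3 falls per cluster and stage, the beta gene with the highest CPM in WT neurons, 2 genes per list and stage, and Ctcf, Smchd1 and Dnmt3b; other names were added after their values were seen.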

Additional observations from a re-analysis of the deposited data

Results flagged for a closer look

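The genotype effect (log2 of slow/slow over WT) differed between a later stage and ESCs, by the interaction test of edgeR at an FDR under 0.05, for the following protocadherin rows. In NPCs the difference from the effect in ESCs was 1.15 for Pcdha1, 0.67 for Pcdhga11, 2.88 for Pcdh8, 1.99 for Pcdh10, 2.30 for Pcdh17, 3.42 for Pcdh18 and 2.32 for Pcdhb22. In PSA-NCAM+ cells it was 0.69 for Pcdhga11, 3.48 for Pcdh8, 7.41 for Pcdhb21 and -4.85 for Pcdh9. The Pcdhb21 value rested on 4 counts in WT ESC replicate 3, and Pcdh9 had 0 counts in WT ESCs, so that the fitted sizes for these genes depend on the prior count and are no bounds. In neurons it was -1.83 for Pcdha1, -0.87 for Pcdhga11, -1.81 for Pcdh1, -2.52 for Pcdh7, -7.34 for Pcdh9, -1.98 for Pcdh10, -1.31 for Pcdh17, -1.85 for Pcdh19, -2.82 for Pcdhb7 and -2.09 for Pcdhb14. For Pcdha1, Pcdhga11, Pcdh10 and Pcdh17 the effect was thus shifted upward from ESCs to NPCs and downward from ESCs to neurons, and the difference between NPCs and neurons was not tested. The 3 contrasts share the ESC samples.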

How the results depend on the processing

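Of 1212 single-gene values recomputed under the alternatives, 1173 kept their direction and side of the threshold, and 0 were reversed. A further 22 passed the threshold where the reported fit did not, and 17 did not pass it where the reported fit did. The same gene and stage can enter these numbers under several alternatives. Of the counts and family sums, 313 recomputed values stayed within 1.5 times or 1 SD and 15 moved. The cause was not tested in any case. In neurons the family sums moved with scaling, alpha from -1.04 to -0.89 with upper-quartile scaling and -0.90 with library totals alone, beta from 0.26 to 0.40 and 0.39, and gamma from -0.62 to -0.48 and -0.49. Upper-quartile scaling shifted the median of all genes in neurons from -0.06 to 0.08 and gave 8 rows higher and 10 lower. DESeq2 called 6 rows in ESCs and 12 and 16 rows for a different effect in NPCs and neurons, against 3, 7 and 10. Fits of the samples of a stage alone called 19 rows in PSA-NCAM+ cells and 31 in neurons, with no share of all genes beside these counts. Leaving out single libraries gave 4 to 8 rows with a different effect in NPCs and 3 to 8 in PSA-NCAM+ cells, 8 of them without slow/slow PSA-NCAM+ replicate 1. The Pcdh17 exon was the single splicing call in neurons, with 0 calls at 15 points and 0 to 1 over the fits without a library. With a replicate block over all samples 4, 30, 30 and 17 rows were called at the 4 stages, against 3, 30, 30 and 17. Added after seeing the data, the block within PSA-NCAM+ samples alone called 21 rows, and leaving out both libraries of replicate 1 called 31. The alpha and gamma sums hold 1 row each and could not be recomputed without their highest member. Low counts limit the beta genes in ESCs, where a few reads decide a value.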
